A study of Mus musculus with 3 samples.

Results

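The genes described here carry symbols given to proteins of the mitochondrial ribosome, and a symbol alone does not show that a protein sits there. They were chosen by symbol, as every gene whose deposited name is Mrpl or Mrps followed by a number and at most 1 letter, in both deposited tables. This gave 74 genes of the 45100 symbols shared by the tables, 26 with small subunit (Mrps) and 48 with large subunit (Mrpl) symbols. The symbol pattern uses no expression value, but it was chosen with earlier results of these data known. Where a symbol had more than 1 row, the row with the largest summed FPKM was taken. The RNA came from RAW264.7 cells, macrophage-like mouse cells grown from a tumour that Abelson leukaemia virus had caused. One group was grown sparsely (low density, LD) and one densely (high density, HD). The last was HD with 24 h of bacterial lipopolysaccharide (LPS, 500 ng/ml), added 24 h after the cells were seeded. All groups were the same line in the same serum-supplemented medium, with no gene altered. The labels do not state how many cells were seeded. Each group had 1 library, so no difference can be set against a replicate spread and no test was made. All comparisons describe these libraries and not the conditions in general.

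Mitochondria keep their own ribosome, which makes the few respiratory chain proteins that mitochondrial DNA encodes. Its ribosomal RNAs come from mitochondrial DNA, but all of its proteins are encoded in the nucleus, made in the cytosol and imported. The small subunit reads the messenger RNA. The large subunit joins amino acids and feeds the new chain through an exit tunnel into the inner membrane. Part of the proteins descend from bacterial ribosomal proteins and the others were added in the mitochondrial lineage. Macrophages activated by LPS are known to lean on glycolysis and to lower mitochondrial respiration.

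Levels are in FPKM, a fragment count corrected for transcript length and library size, as Cuffdiff scaled it within each table. A gene was called measured at 1 FPKM or more in either library of a table. Of the 74 members, 71 were measured in both comparisons. Cells carried macrophage transcripts, with Lyz2 (lysozyme) at 1712 FPKM in LD and 1431 in HD, and Csf1r (the receptor for colony-stimulating factor 1) at 228 and 178. Cd3e and Epcam, markers of T cells and epithelium, were listed at 0 in both. Because RNA came from whole cultures, fewer cells expressing a gene and less RNA per cell cannot be told apart.

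The members were expressed across a wide range, although most of their proteins occur as a single copy per ribosome. In the low density library 12 members stood at 100 FPKM or more and 58 between 10 and 100. Among the 70 above 10 FPKM, the highest was 21.8 times the lowest. The median of measured members was 45.3 FPKM for the small subunit and 49.6 for the large.

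Among small subunit genes, Mrps21, a homolog of bacterial S21, was the highest at 259 FPKM in LD, followed by Mrps26 at 107 and Mrps18a at 100.2. The lowest of those above 10 FPKM was Mrps25 at 15.3. Exons of Mrps25 overlap those of Nr2c2 over 69.8% of their bases in the GENCODE M21 annotation, so their reads may not be separate. Among large subunit genes, Mrpl42 was the highest at 231 FPKM, then Mrpl52 at 220 and Mrpl33 at 178. Mrpl35, a homolog of bacterial L35, was the lowest above 10 FPKM, at 11.8. Mrpl12, the homolog of the bacterial stalk protein L7/L12 that also binds the mitochondrial RNA polymerase, was at 174, while its stalk partners Mrpl10 and Mrpl11 were at 45.6 and 16.8. With 1 library a group, neighbours in this order cannot be separated from each other.

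**Figure D1:**
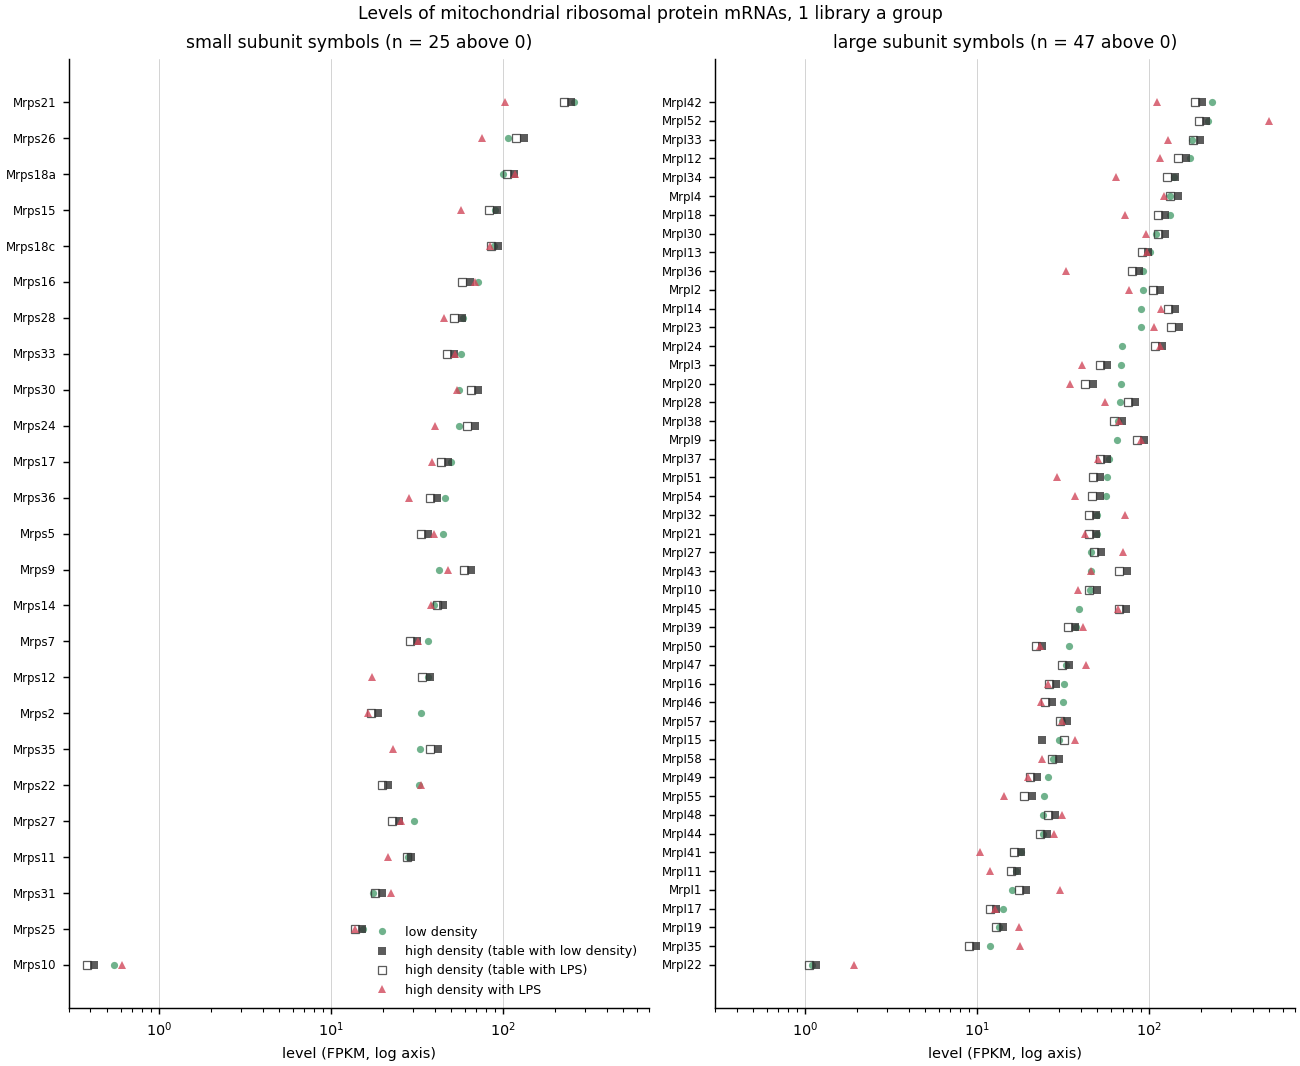
Levels of members in FPKM on a log axis, small subunit symbols at left and large subunit symbols at right, ordered by the low density library. Each point is 1 library value, and open and filled squares are the same high density library in its 2 tables. Most members lie between 10 and 259 FPKM, with Mrps10 and Mrpl22 far below, and Mrpl40 and Mrps18b, listed at 0, are not drawn.

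The 4 lowest members were all genes with more than 1 row. Mrpl40, a large subunit protein, had 2 rows and was listed at 0 in every library and row. Mrps18b had 3 rows, all listed at 0. Mrps10, the homolog of bacterial S10, had 2 rows and stood at 0.545 FPKM in LD, 0.421 at high density, 0.384 for the same high density library in the other table, and 0.609 with LPS. Mrpl22, which lines the exit tunnel, had 2 rows and stood at 1.10, 1.16, 1.06 and 1.92 FPKM in the same order, or about 13.2 fragments at low density. In each of these genes 1 row lay on a numbered chromosome, and the others on sequences outside the numbered chromosomes. Mrps35, the remaining gene with 2 rows, was at 3.89 FPKM on chromosome 6 and 32.7 on such a sequence in LD. The larger row was used by the selection rule. The chromosome 6 row of Mrps35 was at 1.34 FPKM in HD, and at 1.21 and 1.86 without and with LPS. Its 2 rows thus went opposite ways in both comparisons. A listed 0 in such a table can be a failed estimate, so it is not read as absence.

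Mouse has paralogs Mrps18a, Mrps18b and Mrps18c of the bacterial protein S18, and structures place Mrps18a in the large subunit in spite of its name. Mrps18a was at 100.2 and 116 FPKM in LD and HD, and at 105 and 117 without and with LPS in the other table. Mrps18c was at 88.5 and 93.6, and at 85.5 and 84.5. The log2 ratios for density and LPS were 0.21 and 0.15 for Mrps18a, and 0.08 and -0.02 for Mrps18c, all small beside 2-fold. Exons of Mrps18c overlap those of Gm43511 over 23.2% of their bases in the GENCODE M21 annotation. The deposited loci of Mrps18a and Mrps18c also run past their GENCODE ends, so reads of neighbours may not be separate. No level can be given for Mrps18b.

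The high density library enters both tables and was scaled in each, which gives the only repeat of a value in these data, and one of processing alone. Over the 71 measured members, the LPS table's value over the density table's gave a median log2 ratio of -0.14. Without Mrpl15, the range over 70 members was -0.15 to -0.08. Mrpl15, a homolog of bacterial L15, was at 23.9 FPKM in the density table and 32.02 in the LPS table, a log2 ratio of 0.42. Its low density value was 29.8 FPKM, so the direction of its density ratio depends on which estimate of the same library is taken. Ratios were therefore made within a table only.

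**Figure D2:**
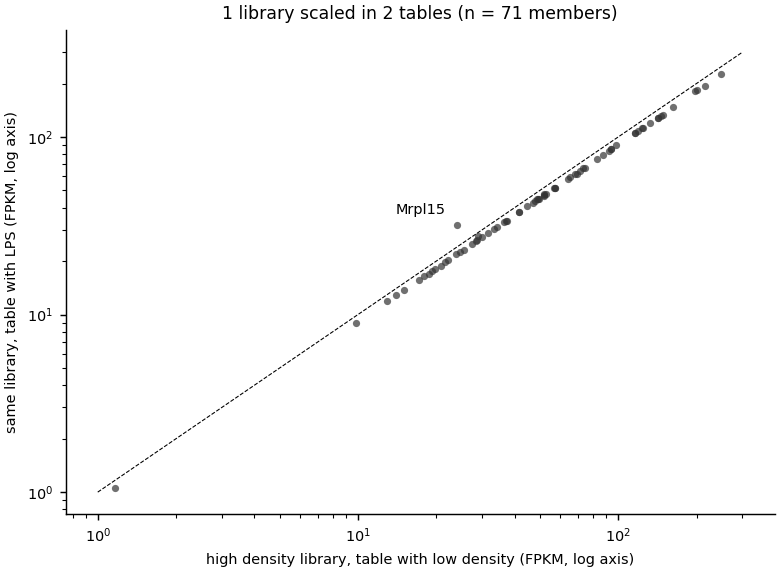
The high density library as estimated in the density table (x axis, FPKM, log) and in the LPS table (y axis, FPKM, log), 1 point for each of 71 members, with the line of equality dashed. All members except Mrpl15 lie just below the line, and Mrpl15 lies above it at 23.9 and 32.02 FPKM.

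Dense cells were first set against sparse cells. Mitochondrial ribosomal protein mRNAs lay within 2-fold of their low density levels: of 71 measured members, 0 were 2-fold higher or more, and 0 were 2-fold lower or more. Over all 10911 measured genes, 3.54% were 2-fold higher and 0.907% lower. Among the 5938 at 10 FPKM or more in both libraries, 132 were 2-fold higher and 23 lower. The members' median log2((FPKM + 1)/(FPKM + 1)) was 0.02, against 0.01 over all measured genes. A ratio above 0 was seen in 36 members and below 0 in 35, near the 51.4% of all genes above 0. The members' middle 50% spanned -0.13 to 0.18, and that of all measured genes -0.25 to 0.30. Equalising the libraries' summed FPKM, with the 20 highest genes set aside, moved the members' median to -0.22 and that of all genes to -0.20, so no direction is given for the group. Of all genes past 2-fold, 79.6% were higher as deposited and 51.5% after that rescaling.

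The subunits had like values. The small subunit had a median of 0.0053 (24 measured, 12 above 0) and the large subunit 0.02 (47 measured, 24 above 0). Homologs of bacterial proteins had a median of 0.03 (41 measured) and members listed as mitochondria-specific -0.02 (28 measured).

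At a smaller size, 7 members had log2 ratios of 0.5 or more, 9.86% of those measured against 14.8% of all genes. Another 4 had -0.5 or less, 5.63% against 9.06%. Among genes at 10 FPKM or more in both libraries, these shares were 12.4% and 6.92%. With the 20 highest genes set aside in scaling, 2 members were at 0.5 or more and 7 at -0.5 or less, so the balance turned. The largest ratio was that of Mrpl45, which sits at the tunnel exit and helps to anchor the ribosome to the inner membrane (deposited locus on GRCm38 chromosome 11, 97314747 to 97329920). It was at 39.1 FPKM in LD and 73.1 in HD, a log2 ratio of 0.89. Mrpl24 and Mrpl23, also exit tunnel proteins, were at 69.5 and 119 FPKM, and at 89.3 and 149. Of the 6 exit tunnel genes, 3 thus had log2 ratios of 0.73 to 0.89, while Mrpl44, Mrpl39 and Mrpl22, the last on few fragments, lay between -0.03 and 0.08. Exons of Mrpl24 overlap those of Rrnad1 over 26.3% of their bases, so the reads of the 2 genes may not be separate.

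Other large subunit genes with higher values were Mrpl43 at 45.7 and 74.3 FPKM, Mrpl14 at 90.1 and 142, and Mrpl9, a homolog of bacterial L9, at 64.7 and 93.9. Mrpl43 overlaps Twnk, the mitochondrial DNA helicase gene, over 33.4% of its exon bases, and Mrpl14 overlaps Tmem63b over 11.2%. Mrps9, a homolog of bacterial S9, was the highest ratio of the small subunit, at 42.7 and 65.2 FPKM. It was followed by Mrps30, which structures place in the large subunit, at 55.8 and 71.3. Then came Mrps35 at 32.7 and 41.6 in the row used, whose other row went the other way, and Mrps24 at 55.1 and 68.2 FPKM.

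The lowest ratio was that of Mrps2, a homolog of bacterial S2 (deposited locus on chromosome 2, 28462001 to 28471177). The GENCODE M21 annotation starts the gene at 28468066, so reads of a neighbour may not be separate. Mrps2 was at 33.3 FPKM in LD and 18.7 in HD, a log2 ratio of -0.80. That ratio became -1.03 after the rescaling that sets aside the highest genes. Mrps22, a small subunit protein with no bacterial homolog, was at 32.5 and 21.5 FPKM. Mrpl20, a homolog of bacterial L20, was at 68.2 and 47.1, and Mrpl50 at 34.3 and 23.8. These 4 were the members at -0.5 or less. Next in their subunits by log2 ratio came Mrps27 and Mrps5, both at -0.29, then Mrpl15 at -0.31 and Mrpl3, a homolog of bacterial L3, at -0.26.

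In the authors' deposited table, made without replicates, 0 of the 71 members with a test result are called, against 0.253% of all loci tested there. The lowest p-value among members in that table is 0.0357, for Mrpl45, and every tested member has q = 0.999.

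The second comparison asked how expression differed with LPS in high density cells. The members spread further apart with LPS: 1 of 71 was at least 2-fold higher, against 8.6% of the 11010 measured genes, and 2 were at least 2-fold lower, against 5.84%. The median log2 ratio was -0.09, against 0.03 over all measured genes. Ratios were above 0 in 27 members and below 0 in 44, and 52.1% of all genes were above 0. The median lay between -0.13 and -0.06 under the alternatives run. The middle 50% of members spanned -0.37 to 0.15, narrower than that of all measured genes at -0.38 to 0.45. Both were wider than for density, at 0.52 against 0.31 log2 units for members and 0.83 against 0.55 for all measured genes.

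Small subunit genes had a median of -0.13 (24 measured, 8 above 0) and large subunit genes -0.07 (47 measured, 19 above 0). Homologs of bacterial proteins had a median of -0.13 (41 measured) and mitochondria-specific proteins -0.02 (28 measured). All 3 stalk genes were lower, with Mrpl12 at 147 and 116 FPKM, Mrpl10 at 44.9 and 38.5, and Mrpl11 at 15.7 and 11.8, none of them past 2-fold. The 6 exit tunnel genes had a median of 0.18, from Mrpl23 at -0.32 to Mrpl22 at 0.51. Mrpl22 rested on about 15.02 and 21.5 fragments, and without it the median of the other 5 was 0.10, up to Mrpl39 at 0.29.

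Mrpl52, a large subunit protein with no bacterial homolog, was the member past 2-fold upwards (chromosome 14, 54426909 to 54429750). It was at 220 FPKM in LD and 215 in HD, and, in the LPS table, at 195 without LPS and 496 with it. The low and high density libraries thus lay close together and the LPS library stood apart from them, with a log2 ratio of 1.34. With LPS it was the highest of all members. In the authors' deposited table, none (0) of the 72 members with a test result are called, against 0.341% of all loci tested there, and the lowest p-value is that of Mrpl52, 0.0546, with q = 0.911. Its exons overlap those of no other gene in the GENCODE M21 annotation.

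Mrpl36, a homolog of the small bacterial protein L36 (chromosome 13, 73328503 to 73332183), was at 92.4 and 87.4 FPKM in LD and HD, and at 79.3 without and 32.9 with LPS. Mrps21 (deposited locus on chromosome 3, 95862634 to 95892005) was at 259 and 248, and at 225 and 102. Both differed little between LD and HD and were lower with LPS, with log2 ratios of -1.25 and -1.13. Just inside 2-fold were Mrpl34, a homolog of bacterial L34, at 128 and 63.9 FPKM (log2 ratio -0.99), and Mrps12, the homolog of the bacterial decoding protein S12, at 33.7 and 17.3 (log2 ratio -0.93). Mrpl34 passed 2-fold under both rescalings, at -1.02 each. In GENCODE M21, exons of Mrpl36 overlap those of Ndufs6, a complex I subunit gene, over 2.58% of their bases. Those of Mrps21, Mrpl34 and Mrps12 overlap none there. The deposited locus of Mrps21 runs past its GENCODE end of 95871519, so reads of a neighbour may not be separate.

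**Figure D3:**
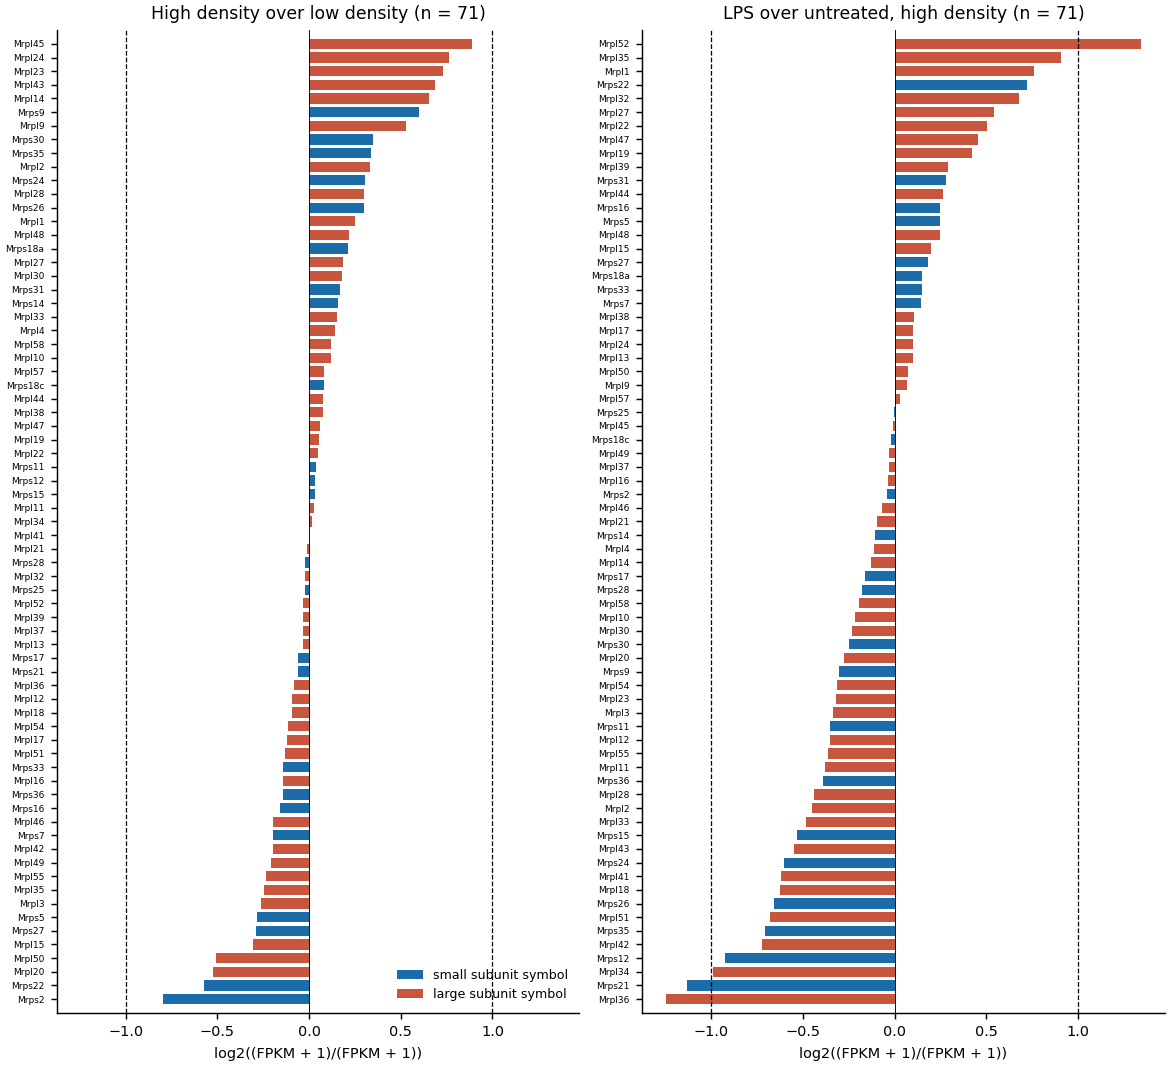
Log2 ratio of each measured member (x axis) for high over low density at left and for LPS over untreated high density cells at right, ordered by ratio, with small and large subunit symbols in 2 colours and 2-fold marked by dashed lines. Density ratios run from -0.80 for Mrps2 to 0.89 for Mrpl45, and LPS ratios from -1.25 for Mrpl36 to 1.34 for Mrpl52.

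In all, 13 members had LPS log2 ratios of -0.5 or less, 18.3% against 19.3% of all genes. Only 7 were at 0.5 or more, 9.86% against 22.4% of all genes. Among genes at 10 FPKM or more in both libraries, 14.2% were at -0.5 or less and 18.7% at 0.5 or more. The members' share at -0.5 or less was thus below that of all genes and above that of these genes. Beside those named, lower members included Mrpl42 at 184 and 111 FPKM, Mrpl51 at 47.4 and 29.2, and Mrps26 at 119 and 75.3. Mrps35 was at 37.9 and 22.8 in the row used, but its other row was higher with LPS. The 6 at 0.5 or more beside Mrpl52 stood at 49.7 FPKM or less in LD. Mrpl35 was at 9.01 FPKM without LPS and 17.8 with it, and Mrpl1, of the mobile L1 stalk, at 17.6 and 30.5. Mrpl32, a protein that must be cleaved by a mitochondrial protease before it is built in, was at 44.9 and 72.4. Mrpl27, whose bacterial homolog reaches the catalytic centre, was at 47.9 and 70.4 FPKM. Its deposited locus starts at 94629777 on chromosome 11, and the GENCODE gene at 94653767. Exons of Mrpl27 also overlap those of Eme1 over 7.61% of their bases, so reads of neighbours may not be separate.

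Mrps22 was at 32.5 FPKM in LD, 21.5 at high density, 19.7 in the LPS table without LPS and 33.2 with LPS, the highest LPS ratio of the small subunit at 0.72. The high density library was its lowest in both tables. Because both comparisons share that library, a low value in it lowers the first ratio and raises the second. Next in the small subunit were Mrps31 at 18.1 and 22.2, Mrps16 at 57.7 and 68.8, and Mrps5 at 33.2 and 39.6 FPKM.

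Other members with a well-known role had LPS log2 ratios between -0.34 and 0.26. Mrpl4 was at 132 FPKM without LPS and 122 with it, Mrpl3 at 51.8 and 40.8, and Mrpl44, an RNase III-like protein, at 23.2 and 28.01. Mrpl45 was at 66.7 and 66.3, a log2 ratio of -0.01, although it had the largest ratio of the members for density. Mrps2 was at 17.02 and 16.5 FPKM, Mrps7, a homolog of bacterial S7, at 28.8 and 31.98, and Mrps30 at 64.7 and 54.2.

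Members that were high without LPS tended to be lower with it. Across 71 members, the level in the low density library, which enters neither side of the LPS ratio, had a Spearman rho of -0.42 with that ratio. Over all 10519 genes measured in both comparisons rho was -0.0045, and over the 6227 of them at 10 FPKM or more it was -0.09. The 24 members highest in LD, from 65.5 FPKM upwards, had a median LPS log2 ratio of -0.33 with 6 above 0. For all genes in that range the median was -0.11. The 24 lowest, from 1.10 to 33.3 FPKM, had a median of 0.06 with 13 above 0. For all genes from 10 FPKM to below 34.3 in LD, the median was near that, at 0.05. Members are not independent replicates, and all points share the same libraries.

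Transcript length moved with both. Its rho was -0.53 with the level and 0.36 with the LPS ratio, and the 24 highest members had a median transcript length of 910.5 bases against 2338 for the 24 lowest. Among the 48 members of 1000 bases or more, the rho of level and LPS ratio was -0.42, and among the 23 shorter ones -0.17. These are GENCODE lengths and need not be those behind the deposited FPKM. For Mrps26, Mrps16 and Mrpl32 they exceed the whole deposited locus, as with 4278 bases for Mrps26 (chromosome 2, 130563757 to 130565394). The part of length in the pattern was not tested. Mrpl52, with an annotated transcript length of 418 bases, is short and highly expressed and was higher with LPS.

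**Figure D4:**
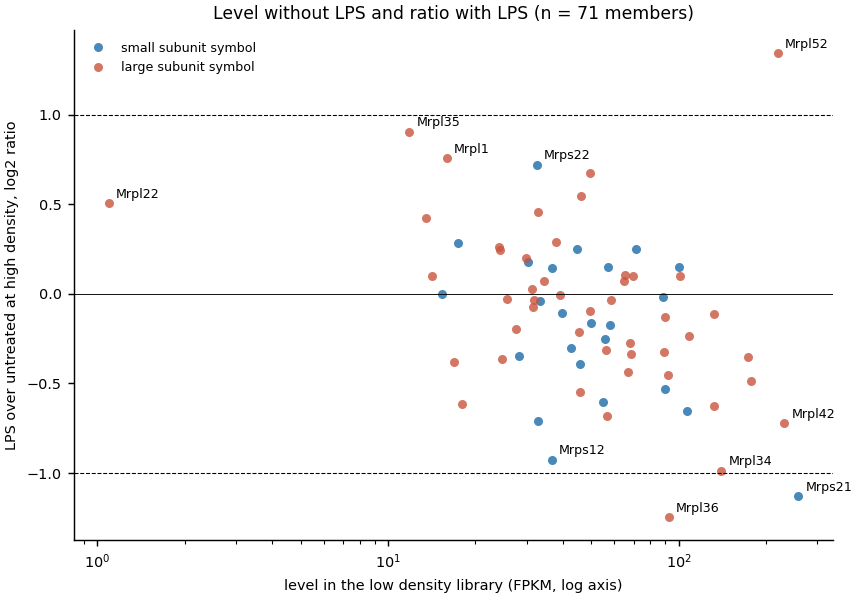
Level in the low density library (x axis, FPKM, log) and log2 ratio of LPS over untreated high density cells (y axis), 1 point for each of 71 members coloured by subunit symbol, with 2-fold dashed. The cloud slopes down from Mrpl35 at 0.91 to Mrps21 at -1.13 (rho -0.42), and Mrpl52 at 1.34 lies far off it.

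The members' summed FPKM was 4508 in LD and 4781 in HD, and their share of all FPKM was 0.698% and 0.662%. As a share of the summed FPKM of nuclear genes, the members made up 0.874% in LD and 0.766% in HD. The sum was thus higher in HD while both shares were lower, so no direction is given for density. Within the LPS table the members made up 0.766% of nuclear FPKM without LPS and 0.647% with it. The small subunit went from 0.235% to 0.176% and the large subunit from 0.531% to 0.471%. Mrpl52 carried much of the large subunit's sum with LPS, which was 0.497% and 0.391% without that gene. Such shares also move with every other gene in the library.

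Regulatory sequence was examined because nuclear respiratory factor 1 (NRF1), ETS family factors such as GABP, and YY1 are known to bind promoters of nuclear genes for mitochondria. RefSeq windows on GRCm38.p6, from 250 bases before to 50 after a start, were found for 66 members. Mrpl13, Mrpl15, Mrpl19, Mrpl38, Mrpl4, Mrpl54, Mrps28 and Mrps35 had none. The ETS core CCGGAAG, searched on both strands like all motifs here, was in 24 of 66 members (36.4%) and in 22.6% of the 7688 protein-coding genes measured in the density comparison. The YY1 letters AAGATGGC were in 12 members (18.2%) and in 6.02% of those genes. The NRF1 palindrome, printed with its sites, was in 3 members (4.55%) and in 2.54%, and the E-box CACGTG in 5 (7.58%) and in 12.5%. No motif contains another. A match describes letters and does not show binding.

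Members among those with the larger LPS ratios that hold a motif are shown here, chosen after their values were seen, with the motif letters in capitals, 5′ to 3′ on the gene's strand. Mrpl52 (chr14:54426659-54426908, plus strand) and Mrps22 (chr9:98601680-98601929, minus strand) are given as the 250 bases before the start, which hold no annotated exon. Each has 1 ETS core there.
Mrpl52: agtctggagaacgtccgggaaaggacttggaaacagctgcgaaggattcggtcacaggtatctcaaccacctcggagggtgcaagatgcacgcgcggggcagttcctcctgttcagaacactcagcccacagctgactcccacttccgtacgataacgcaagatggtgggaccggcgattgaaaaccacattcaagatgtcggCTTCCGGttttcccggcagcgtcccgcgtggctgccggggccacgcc
Mrps22: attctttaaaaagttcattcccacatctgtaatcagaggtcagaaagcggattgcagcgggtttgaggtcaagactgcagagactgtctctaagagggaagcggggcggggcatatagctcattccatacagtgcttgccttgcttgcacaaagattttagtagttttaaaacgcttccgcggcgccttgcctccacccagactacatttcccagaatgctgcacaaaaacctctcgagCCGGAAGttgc

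Short sites of 30 bases show the same letters in members that went opposite ways with LPS. Mrps21 (chr3:95871479-95871508, minus) and Mrpl34 (chr8:71464877-71464906, plus) were lower with LPS and hold the ETS core that Mrpl52 and Mrps22 also hold.
Mrps21: ccgtagcttccgCTTCCGGtccgcagagac
Mrpl34: gaactacagctcCCGGAAGgccccgcggca

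Mrpl36 (chr13:73330961-73330990, plus) and Mrpl42 (chr10:95501904-95501933, minus) were lower with LPS, whereas Mrpl35 (chr6:71823743-71823772, minus) and Mrpl32 (chr13:14613258-14613287, minus) were higher, and all 4 hold the YY1 letters. Mrpl36 also has an E-box.
Mrpl36: catccCACGTGaccttacGCCATCTTtctt
Mrpl42: cagattgaagcAAGATGGCgagcgcgcggt
Mrpl35: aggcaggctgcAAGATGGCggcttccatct
Mrpl32: cgcgctctGCCATCTTtacccggaaagtcg

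The NRF1 palindrome was in Mrpl9 (chr3:94443298-94443327, plus), Mrpl39 (chr16:84735350-84735379, minus) and Mrpl32. Their LPS log2 ratios were 0.07, 0.29 and 0.68.
Mrpl9: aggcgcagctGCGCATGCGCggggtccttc
Mrpl39: aaggagaggcGCGCATGCGCccccgcgtgg

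Ranges with and without a motif overlapped for all 4 motifs in both comparisons. Members with the ETS core had a median LPS log2 ratio of -0.02 (23 measured, -1.13 to 1.34) and those without it -0.12 (40 measured, -1.25 to 0.91). With the YY1 letters the median was -0.03 (12 measured, -1.25 to 0.91) and without them -0.11 (51 measured). The 5 members with the E-box were all below 0, with a median of -0.28 (-1.25 to -0.02), against -0.08 in the 58 without it. The 3 with the NRF1 palindrome were all above 0, with a median of 0.29, against -0.12 in the 60 without it. For density, the medians with and without the ETS core were 0.02 and 0.01.

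Some members share a start region with a gene on the other strand. In the GENCODE M21 annotation, 17 of 74 members (23.0%) had the start of another protein-coding gene pointing away from them within 1000 bases, against 11.9% of the 9407 protein-coding genes measured in the density comparison. Some partners differed as their member did and others did not. Mrpl51 was at 47.4 and 29.2 FPKM without and with LPS, beside the condensin subunit gene Ncapd2 at 76.1 and 24.5. The deposited locus of Mrpl51 starts at 125168006 on chromosome 6, on the side of Ncapd2, and the GENCODE gene at 125191801. Reads of these 2 genes may therefore not be separate. Mrps12 was at 33.7 and 17.3 FPKM without and with LPS, beside Sars2, the mitochondrial seryl-tRNA synthetase gene, at 10.0 and 9.63. Mrpl32 was at 44.9 and 72.4 beside the proteasome subunit gene Psma2 at 184 and 193. Mrpl49 was at 25.7 and 22.2 FPKM in LD and HD beside Fau, a cytosolic ribosomal protein gene, at 1836 and 3278. In RefSeq the members Mrpl46 and Mrps11 also lie head to head, with 41 bases between their starts (chr7:78783090-78783130).

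Mrpl46 was at 31.5 and 27.4 FPKM in LD and HD and at 24.9 and 23.6 without and with LPS. Mrps11 was at 28.2 and 29.0, and at 27.5 and 21.4. Their levels were close to each other in every library, with log2 ratios of -0.20 and 0.04 for density and of -0.07 and -0.35 for LPS. Their exons overlap over 12.2% of the bases of Mrpl46 in GENCODE, so reads near the starts may not be separate.

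Other genes of the pathway were counted from lists. Of 5 mitoribosomal proteins with other symbols, 0 were past 2-fold in either comparison. Dap3, a GTP-binding small subunit protein, was at 89.1 and 126 FPKM in LD and HD and at 115 and 106 without and with LPS. Of 14 measured translation factors, 0 were past 2-fold in either comparison, with medians of 0.05 (8 above 0) and -0.13 (3 above 0). The density median was -0.18 (4 above 0) with the 20 highest genes set aside in scaling. Oxa1l, which inserts new chains into the inner membrane, was at 31.9 and 54.6 FPKM in LD and HD. Lrpprc, which stabilises mitochondrial mRNAs, was at 39.9 and 24.6 without and with LPS.

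Among 23 measured assembly and ribosomal RNA modification factors, 0 were past 2-fold for density. With LPS 1 was lower, Rbfa, the ribosome-binding factor of the small subunit, at 54.7 and 25.7 FPKM, and 0 were higher, against 5.84% lower and 8.6% higher over all genes. The GTPase gene Noa1 was at 28.8 and 14.02 (log2 ratio -0.99), and under both rescalings 2 were lower, Rbfa and Noa1. Mitochondrial transcription and RNA processing genes had medians of -0.15 for density (19 measured) and -0.16 for LPS (20 measured), with 0 past 2-fold in either. Pnpt1, a mitochondrial RNA-degrading enzyme, was at 18.4 and 35.4 FPKM without and with LPS, and Trmt10c, a subunit of mitochondrial RNase P, at 16.2 and 30.03.

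Of regulators, Myc was the gene past 2-fold, at 0.690 FPKM without LPS and 5.01 with it, 1 of 8 measured. It passed the minimum of 1 FPKM only through the LPS library. Nrf1 was at 15.2 and 13.7, Gabpa at 14.3 and 20.3, Gabpb1 at 9.15 and 15.8, and Yy1 at 37.2 and 39.7 FPKM. Ppargc1a, the coactivator PGC-1α, was listed at 0 or near it in every library.

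The cytosolic ribosome and the respiratory chain, which holds the products of mitochondrial translation, were set beside the members. For density, cytosolic ribosomal protein genes had a median log2 ratio of 0.54 with 71 of 73 above 0. Nuclear respiratory chain subunits had 0.17 with 58 of 71 above 0, and the members 0.02 with 36 of 71. With the 20 highest genes set aside in scaling, these medians were 0.30 (68 above 0), -0.07 (27 above 0) and -0.22 (14 above 0). For LPS the medians were -0.08 (24 of 72 above 0) and -0.36 (7 of 71), and the members' -0.09 (27 of 71). The members' middle 50% was wider than that of cytosolic ribosomal proteins, spanning 0.31 against 0.17 log2 units for density and 0.52 against 0.19 for LPS. With 1 library a group these differences have no test.

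**Figure D5:**
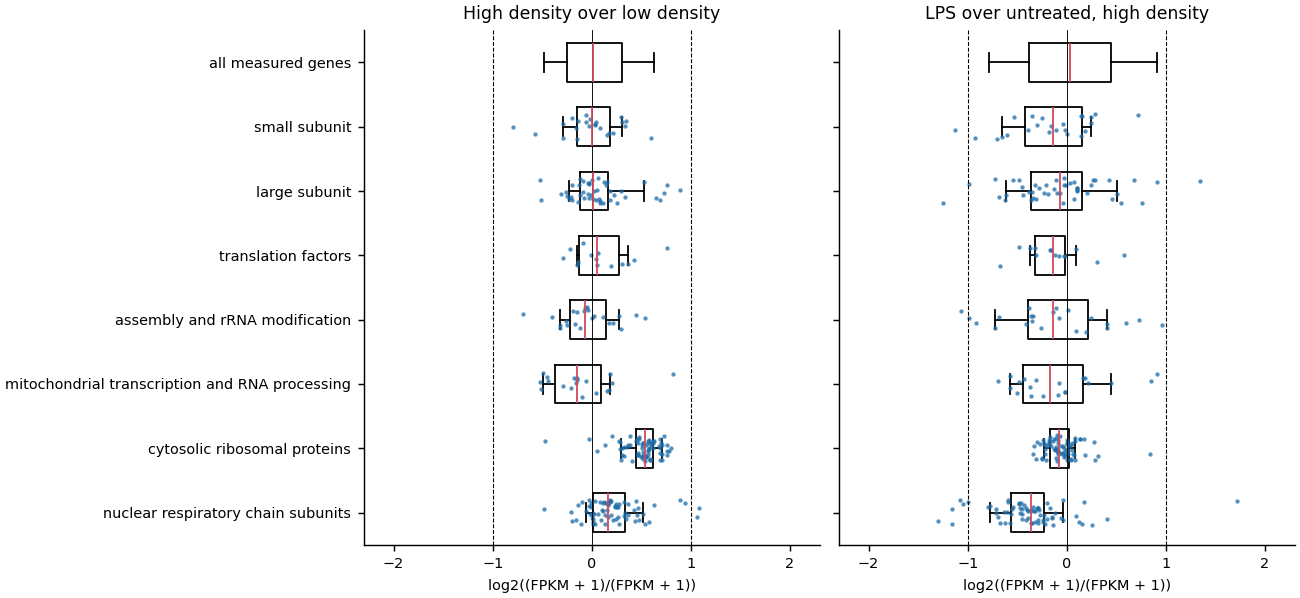
Log2 ratios (x axis) of all measured genes, of small and large subunit members, and of related gene groups, for density at left and LPS at right. Boxes span the middle 50%, whiskers the 10% to 90% range, red lines are medians, dots are genes (none drawn for all genes), and 2-fold is dashed. Cytosolic ribosomal proteins lie at a median of 0.54 for density as deposited (0.30 with the 20 highest genes set aside in scaling), and respiratory chain subunits at -0.36 for LPS.

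The messages that this ribosome reads had log2 ratios below 0 at all 10 loci in both comparisons, without a test. Over all measured genes, 51.4% were above 0 for density and 52.1% for LPS. The 10 loci of mitochondrially encoded mRNAs had a median log2 ratio of -0.72 for density, with a range of -0.98 to -0.02. The highest density ratio was thus near 0. For LPS their median was -1.27, with a range of -2.14 to -0.30. ND3, a complex I subunit, was at 2493 FPKM without LPS and 564 with it, and COX1, of complex IV, at 12467 and 10100. The mitochondrial ribosomal RNA mt-Rnr2 was at 733 and 423, and mt-Rnr1 at 893 and 1179. The labels do not say whether RNA was selected by its poly(A) tail.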

How the data were processed

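RNA from RAW264.7 cells was sequenced in 3 libraries, 1 a group. Per the submitters' processing notes, FastQC, fastp, TopHat2 and Cuffdiff were used on GRCm38 (mm10), with no versions given. Sources used here name no annotation, scaling method or sequencing depth. What the authors deposited are 2 tables, with 49850 and 49971 rows, in which the FPKM values of each library pair were scaled together. The tables also hold the authors' log2 fold changes, test score, p-values and q-values, per the file headers. The high density library is in both, so the comparisons share it, and the rows with no symbol (1154 and 1233) were left out of members and lists.

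From the deposited FPKM, log2 ratios were computed here within each table with a pseudocount of 1 FPKM, which understates differences of low genes. Genes at 1 FPKM or more in either library were called measured. Where a symbol had more than 1 row, that of the largest summed FPKM stood for it. A difference of 2-fold is a log2 ratio of 1 or -1 on that scale. No test was made, since 1 library a group gives no spread. Low values step in multiples that put 1 FPKM over 1000 bases at about 15.5 to 19.7 fragments, so members above 10 FPKM rested on at least about 124 fragments. Such estimates use GENCODE lengths, which need not be those behind the FPKM, and cover counting error only. FPKM of short transcripts depends on the fragment length correction.

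Members named with values were those past 2-fold, the 4 highest and 4 lowest ratios per subunit and comparison, the 3 highest and 3 lowest low density levels per subunit, those with several rows and 15 with a known role. Others were named after their values were seen. Members and lists were chosen with earlier results of these data known. Exon overlap, transcript length and neighbouring starts came from GENCODE M21, and promoter windows from RefSeq (GRCm38.p6). Scripts used Python 3.11.15, pandas 2.3.3, numpy 2.4.6 and matplotlib 3.10.9, and were tested on simulated data. Alternatives were pseudocounts of 0.1 and 5 FPKM, other filters, summed rows, 2 rescalings, other membership of the subunits, and leaving out members with overlapping exons or several rows.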

Additional observations from a re-analysis of the deposited data

How the results depend on the processing

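A median was taken to have moved at a log2 difference of 0.1 or more, and a count at more than 1.5 times. Equalising the summed FPKM of the density libraries, with the 20 highest genes set aside, gave medians of -0.22 for all members, -0.22 for the small subunit and -0.22 for the large, with 14 members above 0 and 1 member 2-fold lower (Mrps2, -1.03). All measured genes moved with them, to a median of -0.20. Leaving out members whose exons overlap another gene left 42 measured, of which 19 were above 0 for density and 17 for LPS, and 1 was 2-fold lower with LPS, because fewer members were counted and Mrpl36 was among those left out. That alternative, and leaving out members with several rows, were chosen after seeing the data. With LPS, both rescalings gave 3 members 2-fold lower in place of 2, with Mrpl34 added at -1.02 each. That change of the count is at the limit of 1.5 times and not past it. The other values of counts and medians stayed within the limits. Among single members 0 of those past 2-fold changed sign. No paired analysis was possible because each group had 1 library. The same lack of replicates means that no ratio can be set against variation between cultures. Mrpl22 and Mrps10 rested on few fragments, and Mrpl40 and Mrps18b were listed at 0.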

Other observations

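Some mitochondrial ribosomal genes were counted in rows joined with a neighbour and so are no members by symbol. The row of Mrps6 and Slc5a3, a myo-inositol transporter gene, was at 93.7 FPKM in LD and 79.5 in HD, and at 72.5 without and 72.6 with LPS. The row of Cuedc1 and Mrps23 was at 49.1 and 57.5, and at 52.2 and 46.6. The row of Ccdc142 and Mrpl53 was at 73.3 and 85.0, and at 76.4 and 102. Mrps34 had its own row for density, at 71.0 and 88.0 FPKM, and a row joined with Nme3 for LPS, at 98.5 and 81.9. The genes of a joined row cannot be told apart. Rows of the pseudogenes Mrpl23-ps1 and Mrpl48-ps were between 0.933 and 3.35 FPKM in all libraries.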
